A study of Mus musculus with 15 samples.

Results

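Left ventricular cardiomyocytes taken 3 days after whole-body iron-ion exposure were compared with the sham-exposed cells of the same study. The comparison took the 3 arrays whose titles give 3 days after iron and the 3 sham arrays, 2 of them from day 1 and 1 from day 3, so it used 6 of 15 arrays. The iron mice received 0.15 Gy of iron ions at 1 GeV per nucleon, at 0.05 Gy per min, and the labels give the beam a LET of 151 keV per µm. All animals, sham included, were male C57Bl/6NT mice aged 8 to 9 months with no engineered allele named in the labels. Arrays of iron days 1 (3 arrays), 7, 14 and 28 (2 arrays each) entered the estimate of the spread, and the proton arm of the study was not analysed here. The cells were isolated by collagenase digestion, and over 90% of them were calcium-tolerant cardiomyocytes, with some endothelial or inflammatory cells possibly among them. The labels do not tie arrays to individual animals, so a p-value here reflects array-to-array spread within groups, possibly technical in origin. Since the sham arrays are mostly of day 1, day of collection and exposure are only partly separated.

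Cardiomyocytes are long-lived muscle cells that seldom divide, and fibroblasts, endothelial cells, macrophages and pericytes surround them in the ventricle wall. Stress on a cell switches on a first wave of genes, among them the AP-1 and Nr4a transcription factors, and, through stalled protein synthesis or endoplasmic reticulum stress, the genes of the integrated stress response. Collagens, small proteoglycans and matricellular proteins of the heart are made mainly by fibroblasts, and class II histocompatibility proteins and complement C1q mainly by macrophages.

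Values are log2 signals, and a difference is the iron day 3 mean minus the sham mean with the standard error (SE) of a fit over 9969 genes by limma. A gene is said to rise, fall or pass where its Benjamini-Hochberg adjusted p was under 0.05. Sham values are given in the order day 1, day 1, day 3. The sham arrays differed among themselves, and of them only the sham day 3 array was set against the others. Between it and the sham day 1 arrays 38 of 9969 genes (0.381%) passed, 32 higher (0.321%) and 6 lower (0.0602%) on day 3, with thymocyte and airway genes in the lead. As the sham day 3 arm is a single array, that test assumes that it varies like the other groups. Cd8b1, a chain of a T cell co-receptor, stood at 8.65 there and at 4.10 and 4.63 on sham day 1, and Sec14l3, a gene of airway epithelium, at 8.60 beside 5.23 and 5.19. That count was 7 and 6 without the first and the second sham day 1 array, 78 without either iron day 7 array and 25 without either iron day 28 array. Across the genes tested, arrays correlated at r = 0.986 to 0.989 within iron day 3, 0.968 to 0.987 within sham, and 0.939 to 0.973 between the groups. Of the 20 cardiomyocyte markers, 20 were tested and 0 passed in limma (2 higher at an unadjusted p under 0.05), with differences from -0.12 to 0.15. Tnnt2, cardiac troponin T, averaged 12.52 after iron and 12.43 in sham, and Myh6, the main myosin heavy chain, 12.22 and 12.25, as the label of the cells requires.

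Of the 9969 genes tested, 801 (8.03%) passed, 278 higher (2.79%) and 523 lower (5.25%) after iron. The falls were the larger, with 229 of the lower and 22 of the higher genes past 2-fold and median sizes of 0.94 and 0.45 on the log2 scale. The largest rises were in stress and early response genes and in short RNAs, and most of the largest falls in genes of fibroblasts and macrophages. The arrays of the groups did not overlap for 274 of the 278 (2.75% of all genes tested) and for 523 of the 523. Passing or not, 19.8% of all genes had every iron array above every sham array and 15.8% the reverse. The median difference of all genes tested was 0.04. With each array centred on its median over all probe sets 1066 genes passed, 126 higher and 940 lower (11.8% higher in place of 34.7%), and centred on the genes tested, 449 higher and 524 lower (46.1%).

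The number of calls moved by over 1.5 times with the loss of any array compared but the second sham day 1 array. It was 277, 126 and 375 without iron day 3 replicates 1, 2 and 3, and 174, 713 and 269 without the first sham day 1, the second sham day 1 and the sham day 3 array. Without the sham day 3 array 72 genes were called higher (0.722%) and 197 lower (1.98%), among them 66 of the 278 and 187 of the 523. In all 6 of these fits 19 of the higher and 89 of the lower genes passed. Each of the 801 kept its direction, which leaving out an array cannot change where the groups do not overlap. For most gene lists the number called in limma is given below with each of these 6 arrays left out in turn, in that order.

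**Figure D1:**
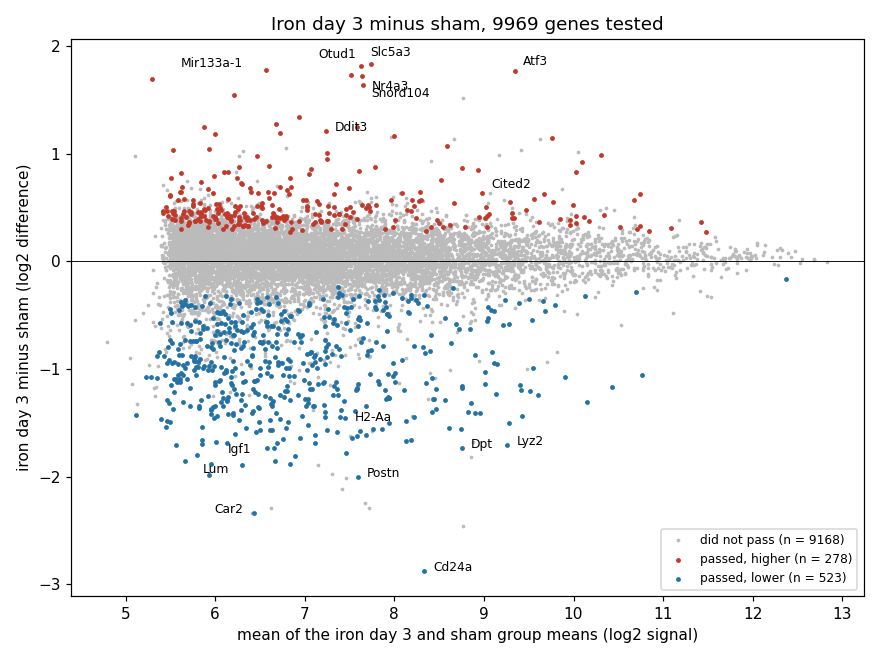
Each point is 1 of 9969 genes. The horizontal axis is the mean of the iron day 3 and sham group means (log2 signal) and the vertical axis is iron day 3 minus sham (log2 difference), with the 278 genes that rose in red, the 523 that fell in blue and the others in grey. The blue points reach much farther from 0 than most red ones.

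The 12 largest rises, among genes whose arrays did not overlap, were Otud1, Slc5a3, Mir133a-1, Atf3, Snord82, Nr4a3, Snord104, Gadd45g, Ddit4, Gadd45b, Snord47 and Ddit3. The 12 largest falls were Cd24a, Car2, Postn, Apod, Lum, Aspn, Cd55, Tlr7, Ms4a6c, Col3a1, Wfdc18 and Fstl1. Their folds ran from 2.31 in Ddit3 to 3.56 in Otud1, and from 3.44 in Fstl1 to 7.33 in Cd24a.

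**Figure D2:**
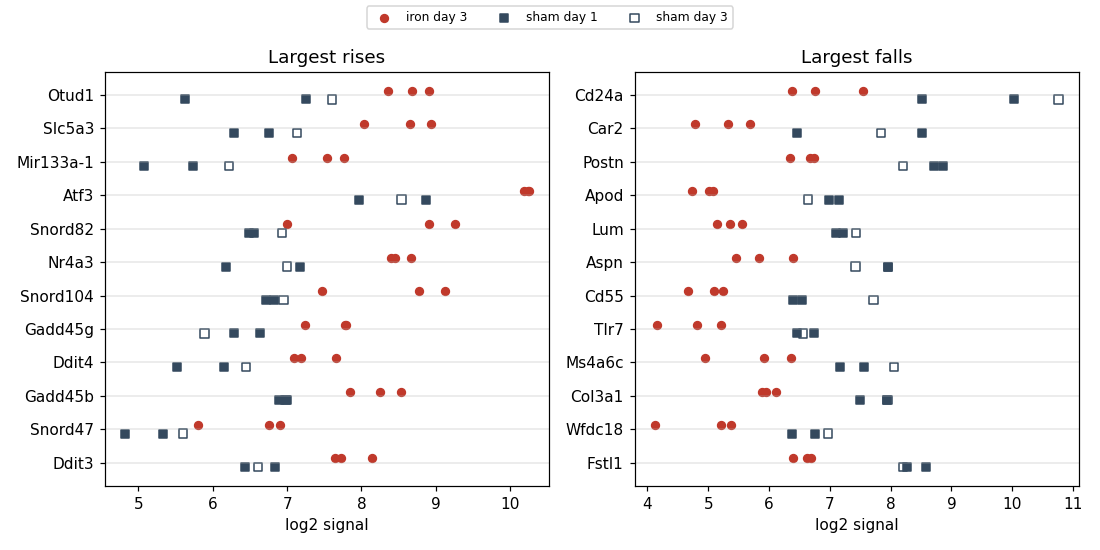
Log2 signal (horizontal axis) of the 12 genes with the largest rises (left) and of the 12 with the largest falls (right) in each array: red circles are iron day 3, filled squares sham day 1 and open squares sham day 3. No gene's red circles mix with its squares, and in Snord82 the lowest iron array (7.00) lies just above the highest sham array (6.93).

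Transcription factors of the AP-1, Egr and Nr4a families rose in part. Of 21 listed, 17 were tested, 3 rose (beside 2.79% of all genes) and 0 fell, and the median of the 17 was 0.55 beside 0.04 for all genes. Atf3, a stress-induced partner and repressor of AP-1 and cAMP response elements, stood at 10.25, 10.19 and 10.24 after iron and at 8.87, 7.97 and 8.54 in sham. All 3 iron arrays were above all sham arrays, and those of iron lay closer together (difference 1.77, SE 0.439, adjusted p = 0.0289). Nr4a3, an orphan nuclear receptor that needs no ligand, stood at 8.40, 8.66 and 8.45 beside 7.17, 6.18 and 7.00 (1.72, SE 0.355, adjusted p = 0.0159). Jun, the main AP-1 subunit, stood at 10.50, 10.55 and 10.59 beside 9.75, 9.27 and 9.85 (0.92, SE 0.248, adjusted p = 0.0389). The iron arrays of these genes again lay above the sham arrays. Their close relatives did not pass: Nr4a1 differed by 0.99 (adjusted p = 0.0514), Fos by 0.93 (adjusted p = 0.140), Egr1 by 0.67 (adjusted p = 0.123) and Jund by 0.54 (adjusted p = 0.0526). The median of the 17 was 0.54 when the sham day 3 array was left out, and of the 3 genes Nr4a3 alone then passed (adjusted p = 0.0362). The number called went from 3 to 1, 0, 1, 1, 1 and 1 as each array was left out.

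Further early response genes rose in 5 of 26 tested cases, beside 2.79% of all genes, none fell, and their median was 0.16. Ccn1, a matricellular protein that cells secrete soon after stress, stood at 10.23, 10.33 and 10.42 after iron and at 9.22, 9.11 and 9.24 in sham (1.14, SE 0.274, adjusted p = 0.0259). All iron arrays of Ccn1 were above all sham arrays. Ier5, a nuclear early response protein, rose by 0.98, Arc, best known from neurons, by 0.68, the small GTPase gene Rhob by 0.52 and the antiproliferative gene Tob1 by 0.52. Tob1 was the one of these that passed without the sham day 3 array (adjusted p = 0.0336), and the number called was 0, 1, 1, 1, 1 and 1 as each array was left out. Btg2, a relative of Tob1, differed by 1.04 and Rnd3, a relative of Rhob, by 1.06, and both missed the threshold (adjusted p = 0.0580 and 0.0531).

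Of 22 feedback inhibitors of kinases and cytokines 1 rose and 1 fell, beside 2.79% and 5.25% of all genes. Their median was 0.04, as for all genes. The number called higher was 0, 0, 1, 1, 1 and 1 as each array was left out, and lower 1, 0, 1, 0, 1 and 1. Dusp1, the phosphatase that switches off stress-activated kinases, stood at 10.93, 10.84 and 10.65 after iron and between 9.43 and 10.02 in sham (0.99, SE 0.220, adjusted p = 0.0203). Spred1, an inhibitor of Ras signalling, fell by 0.94 (SE 0.193, adjusted p = 0.0159). Dusp1 was also the single riser among 15 glucocorticoid target genes tested, beside 2.79% of all genes. The median of the 15 was -0.07 (0.11 without the sham day 3 array).

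Genes of growth arrest and of the integrated stress response rose in 6 of 17 tested cases (21 listed), beside 2.79% of all genes. None fell. The median of the 17 was 0.39. The number called was 3, 2, 3, 1, 4 and 3 as each array was left out, and the median 0.53 without the sham day 3 array and 0.15 with that array as the only control. Ddit3, which encodes the transcription factor CHOP, stood at 8.14, 7.64 and 7.73 after iron and at 6.84, 6.43 and 6.61 in sham (1.21, SE 0.195, adjusted p = 0.00679). The lowest iron array was well above the highest sham array, and Ddit3 passed without each of the 6 arrays in turn. Ddit4, an inhibitor of the mTORC1 growth kinase, stood at 7.18, 7.09 and 7.66 beside 5.52, 6.15 and 6.45 (1.27, SE 0.268, adjusted p = 0.0168). Gadd45b stood at 8.25, 7.84 and 8.53 beside 6.89, 7.00 and 6.98 (1.25, SE 0.299, adjusted p = 0.0255), and Gadd45g at 7.78, 7.24 and 7.79 beside 6.63, 6.28 and 5.89 (1.34, SE 0.379, adjusted p = 0.0476). The third member of that family of growth arrest proteins, Gadd45a, rose by 0.59 (SE 0.111, adjusted p = 0.0111). All 3 Gadd45 genes were higher in every iron array than in every sham array. Chac1, an enzyme that degrades glutathione and a target of ATF4, stood at 6.60, 5.78 and 5.70 beside 5.15, 5.11 and 5.36 (0.82, SE 0.201, adjusted p = 0.0276), with iron replicate 1 the highest.

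The pathway did not move as a block. Atf4, its central transcription factor, differed by 0.39 (adjusted p = 0.195) with overlapping arrays. Asns, the asparagine synthetase gene that ATF4 also induces, stood lower after iron by 0.64 (adjusted p = 0.0805). The 12 tested genes of the p53 target list had 0 called in limma (3 higher and 1 lower at an unadjusted p under 0.05) and a median of 0.09. Gadd45a, Ddit4 and Ier5, which rose, are not in that list, so its count does not cover them. Among 24 DNA repair genes 0 passed in limma (1 at an unadjusted p under 0.05), with a median of 0.02 and differences from -0.16 to 0.22.

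The start regions of the early response and stress genes that rose were read for 4 motifs. These genes were picked by their rise, and members of their lists that did not rise were not read. The shares below therefore cannot set genes that rose apart from other members of these lists. Of the 14 genes that rose, 13 had an entry in RefSeq's GRCm38.p6 table, as 250 bases before to 50 after the start. The composite element of ATF4 and C/EBP factors, TGATGNAA on either strand, was found in 3 of 13 (Atf3, Chac1 and Gadd45g) and in 2.32% of the 8057 start regions of genes tested (4.06% of all 27025). The core of the cAMP response element, TGACG, was in 5 of 13 and in 32.84% of those of genes tested. Its full form TGACGTCA was in 0 of 13 (3.41%) and the AP-1 motif TGANTCA in 1, that of Ddit3 (4.64%). The core is contained in the full form. A match describes the letters only, and nothing was measured on binding. Shown are the 3 regions with the composite element, in capitals, and that of Nr4a3 with its 4 cores in capitals. The lines run along the gene's strand, where each composite element reads as its reverse complement.
Atf3, chr1:191183284-191183583, minus strand: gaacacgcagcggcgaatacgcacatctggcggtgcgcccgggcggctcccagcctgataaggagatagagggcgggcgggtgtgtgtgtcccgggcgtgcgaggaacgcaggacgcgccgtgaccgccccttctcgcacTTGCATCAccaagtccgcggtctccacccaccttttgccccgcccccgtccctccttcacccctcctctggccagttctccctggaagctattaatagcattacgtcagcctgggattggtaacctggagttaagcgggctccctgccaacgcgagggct
Chac1, chr2:119350992-119351291, plus strand: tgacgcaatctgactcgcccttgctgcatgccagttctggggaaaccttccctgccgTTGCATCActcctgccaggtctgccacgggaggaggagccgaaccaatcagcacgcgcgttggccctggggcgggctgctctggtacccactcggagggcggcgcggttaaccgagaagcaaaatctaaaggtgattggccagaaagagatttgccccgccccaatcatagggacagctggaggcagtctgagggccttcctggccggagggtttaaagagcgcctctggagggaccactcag
Gadd45g, chr13:51846425-51846724, plus strand: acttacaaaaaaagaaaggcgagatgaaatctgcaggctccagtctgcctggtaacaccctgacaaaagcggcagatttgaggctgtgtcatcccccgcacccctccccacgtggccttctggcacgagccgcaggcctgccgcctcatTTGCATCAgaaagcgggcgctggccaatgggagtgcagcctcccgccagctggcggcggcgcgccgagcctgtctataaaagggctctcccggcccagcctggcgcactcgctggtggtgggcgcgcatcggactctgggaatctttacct
Nr4a3, chr4:48045055-48045354, plus strand: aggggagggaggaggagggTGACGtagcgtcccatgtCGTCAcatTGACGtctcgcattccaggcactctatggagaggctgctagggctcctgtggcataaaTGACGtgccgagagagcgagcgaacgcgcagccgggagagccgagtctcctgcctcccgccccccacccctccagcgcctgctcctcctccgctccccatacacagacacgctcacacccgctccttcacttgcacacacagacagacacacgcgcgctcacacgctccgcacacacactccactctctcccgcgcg
The composite element starts at position -110 in Atf3, -193 in Chac1 and -101 in Gadd45g, counted from the gene's start. The 4 cores of Nr4a3 start at -231, -213, -205 and -147.

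Foxo target genes and muscle ubiquitin ligases rose in 5 of 21 cases (21 listed), beside 2.79% of all genes. None fell, and their median was 0.16. Cited2, a coactivator-binding protein that restrains hypoxia-inducible transcription, had the smallest adjusted p of the comparison. It stood at 9.32, 9.31 and 9.27 after iron and at 8.69, 8.65 and 8.64 in sham (0.64, SE 0.0788, adjusted p = 0.00510). The arrays of each group lay close together, and leaving out any of the 6 arrays kept the difference between 0.63 and 0.66. Irs2, an adaptor of the insulin receptor, stood at 7.55, 7.38 and 7.01 beside 6.23, 5.98 and 6.15 (1.19, SE 0.253, adjusted p = 0.0168). Otud1, a deubiquitinase gene, stood at 8.68, 8.91 and 8.36 beside 7.25, 5.62 and 7.60 (1.83, SE 0.459, adjusted p = 0.0305), and the second sham day 1 array was far below the other two. Pik3ip1, an inhibitor of phosphatidylinositol kinase, rose by 0.52 and Fbxo32, the muscle ubiquitin ligase atrogin-1, by 0.44 (adjusted p = 0.0340 and 0.0352). Trim63, the other classic ligase of muscle wasting, differed by 0.38 (adjusted p = 0.0734). The number called was 1, 1, 4, 1, 4 and 4 as each array was left out.

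Slc5a3, the inositol transporter that cells raise under osmotic stress, stood at 8.65, 8.03 and 8.94 after iron and at 6.29, 6.75 and 7.13 in sham (1.82, SE 0.459, adjusted p = 0.0313). Its fellows in the list of 13 osmolyte and amino acid carriers tested went the other way or did not pass. Slc6a6, the taurine transporter, fell by 0.63 (adjusted p = 0.0438) and Slc1a5, a glutamine carrier, by 1.02 (adjusted p = 0.0335), and the list's median was -0.19. Without the sham day 3 array none of these 3 passed (adjusted p = 0.0583, 0.0650 and 0.113 for Slc5a3, Slc6a6 and Slc1a5). The list had 0 called higher with any of the 6 arrays left out, and 0, 0, 1, 0, 3 and 0 lower.

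Of 26 heat shock proteins and cofactors 2 rose, beside 2.79% of all genes, and the median was 0.18. The number called was 2, 1, 1, 1, 1 and 3 as each array was left out. Dnaja4, a co-chaperone of Hsp70, stood at 9.37, 9.37 and 9.33 after iron and at 8.58, 8.53 and 8.42 in sham (0.85, SE 0.150, adjusted p = 0.00827). Dnaja4 passed without each of the 6 arrays in turn. Bag3, the co-chaperone that guards the Z-disc, rose by 0.48 (SE 0.109, adjusted p = 0.0224). Some inducible chaperones stood higher in each iron array than in each sham array without passing: Dnajb1 by 1.51 (adjusted p = 0.0716), Hspa1a by 1.02 (adjusted p = 0.161) and Hspb1 by 0.39 (adjusted p = 0.137). Of the 26, 9 had every iron array above every sham array and 1 the reverse, beside 19.8% and 15.8% of all genes.

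Among the 37 microRNA genes tested, 3 rose, beside 2.79% of all genes, and 0 fell, with a median of 0.26. The probe sets measure transcripts of the gene and not the mature arms. Mir133a-1, a gene of the muscle microRNA miR-133a, stood at 7.54, 7.77 and 7.06 after iron and at 5.74, 5.08 and 6.22 in sham (1.78, SE 0.355, adjusted p = 0.0132). Mir212, whose microRNA is induced in the growing heart muscle cell, stood at 5.73, 5.71 and 5.95 beside 5.24, 5.41 and 4.95 (0.60, SE 0.146, adjusted p = 0.0266). Mir667 stood at 7.06, 7.12 and 7.16 beside 6.74, 6.92 and 6.81 (0.29, SE 0.0819, adjusted p = 0.0466). The arrays of the groups did not overlap in any of the 3, as in 274 of all 278 genes that rose. Without the sham day 3 array Mir133a-1 alone passed (adjusted p = 0.0223). The number of microRNA genes called was 1, 0, 1, 1, 4 and 1 as each array was left out. The mature arms of Mir212 (chr11:75173403-75173425 and chr11:75173443-75173464) and Mir667 (chr12:109720020-109720044 and chr12:109720061-109720083), all on the plus strand of GRCm38.p6, are printed to identify them, from RefSeq with the seed, bases 2 to 8, in capitals. No seed is shared among the 4.
mmu-miR-212-5p: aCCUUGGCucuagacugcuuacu
mmu-miR-212-3p: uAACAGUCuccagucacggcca
mmu-miR-667-5p: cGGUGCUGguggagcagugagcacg
mmu-miR-667-3p: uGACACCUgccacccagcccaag

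Small nucleolar RNAs, which guide the chemical modification of ribosomal and spliceosomal RNA, rose in 13 of 27 tested cases, beside 2.79% of all genes. None fell, and 27 of the 27 differences were above 0, against 57.1% of all genes tested (42.9% were below 0). Snord82 stood at 7.00, 8.91 and 9.26 after iron and at 6.55, 6.49 and 6.93 in sham (1.73, SE 0.405, adjusted p = 0.0241). Snord104 stood at 7.47, 8.78 and 9.13 beside 6.82, 6.71 and 6.95 (1.64, SE 0.309, adjusted p = 0.0110), and Snord47 at 5.80, 6.76 and 6.91 beside 5.33, 4.82 and 5.60 (1.24, SE 0.255, adjusted p = 0.0154). In each of them replicate 1 of iron day 3 lay between sham and the other iron arrays, and it was the lowest iron array in 21 of the 27. Snord33 rose by 1.54 although its replicate 1 (5.67) lay under the sham day 3 array (5.70). The other 9 called ran from 0.42 in Snora31 to 1.04 in Gm12238.

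The number called among the 27 depended on single arrays. It was 19 without iron replicate 1, 2 and 3 without iron replicates 2 and 3, 3 and 6 without the first and second sham day 1 array, and 8 without the sham day 3 array, and the median ran from 0.44 to 0.84. Of related short RNAs by name, Scarna17, a guide RNA of Cajal bodies, rose by 1.07 (SE 0.146, adjusted p = 0.00536) and Snord73b by 1.70 (SE 0.478, adjusted p = 0.0459). Snord73b overlapped between the groups and Scarna17 did not. The RNA components of 2 ribonucleases followed, with Rpph1 higher by 0.57 and Rmrp by 0.42, both chosen after their values were seen.

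Among the 19 higher genes that passed whichever of the 6 arrays was left out were, besides some of those above, genes outside these lists. Vamp1, a protein of vesicle fusion, rose by 0.66 (SE 0.0999, adjusted p = 0.00632) and Bcl2l11, the pro-apoptotic protein BIM, by 0.73 (SE 0.124, adjusted p = 0.00745). Lgi1, a secreted protein known from nerve cells, rose by 0.72, Derl2, which helps export misfolded proteins from the endoplasmic reticulum, by 0.56, and Coq4, needed for coenzyme Q synthesis, by 0.52. Erfe, the erythroferrone gene, stood at 5.97, 5.88 and 5.94 beside 5.20, 5.52 and 5.15 (0.64, SE 0.116, adjusted p = 0.00895). Gdap10 rose by 0.95, Klhl21 by 0.47, and Zbtb10 and Gfra4 by 0.45 each.

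Lists of the contractile and metabolic machinery had small median differences, though most metabolic genes stood slightly above 0. Of 30 sarcomere and Z-disc genes 2 rose, beside 2.79% of all genes, none fell, and the median was 0.03. The number called higher was 0, 0, 0, 0, 1 and 0 as each array was left out (and 2 lower without iron replicate 3). Lmod2, which elongates thin filaments, stood at 11.57, 11.66 and 11.58 after iron and at 11.25, 11.23 and 11.25 in sham (0.36, SE 0.0852, adjusted p = 0.0245). Xirp1, a Z-disc and intercalated disc protein, rose by 0.58 (SE 0.149, adjusted p = 0.0335). Among 21 calcium handling genes 1 fell, beside 5.25% of all genes, and none rose. It was Itpr2, a calcium release channel, by 0.50 (adjusted p = 0.0297). The number called lower was 0, 0, 0, 1, 1 and 0 as each array was left out. None of Lmod2, Xirp1 and Itpr2 passed without the sham day 3 array.

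Potassium and sodium channel genes rose in 3 of 19 cases and fell in 1, beside 2.79% and 5.25% of all genes. Their median was 0.27, with 1, 0, 2, 0, 2 and 1 called higher as each array was left out. Hcn4, the pacemaker channel, stood at 6.29, 6.55 and 6.44 after iron and at 5.91, 5.95 and 5.70 in sham (0.58, SE 0.142, adjusted p = 0.0284). Its relative Hcn2 rose by 0.41 (adjusted p = 0.0497). Kcnj2, the inward rectifier of ventricular muscle, stood at 8.72, 8.63 and 8.31 beside 7.87, 7.96 and 8.15 (0.56, SE 0.140, adjusted p = 0.0291). Kcnj8, the rectifier of pericytes and smooth muscle, fell by 1.15 (adjusted p = 0.0410). Without the sham day 3 array Kcnj2 and Kcnj8 passed (adjusted p = 0.0478 and 0.0320) and the Hcn genes did not. With each array centred on its median over all probe sets, 1 of the 19 channel genes rose.

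Of 41 oxidative phosphorylation subunits 0 passed in limma (6 higher and 0 lower at an unadjusted p under 0.05), with a median of 0.08 and differences from -0.05 to 0.33. Fatty acid uptake and oxidation had 1 of 29 higher, beside 2.79% of all genes, and a median of 0.11. The riser was Hadh, a dehydrogenase of the mitochondrial spiral (0.27, SE 0.0717, adjusted p = 0.0372). The number called higher was 0, 0, 1, 0, 0 and 0 as each array was left out. For 28 genes of glycolysis and the citric acid cycle the count was 0 in limma (3 at an unadjusted p under 0.05) and the median 0.10. Above 0 stood 39 of the 41 oxidative phosphorylation, 24 of the 29 fatty acid and 24 of these 28 genes, against 57.1% of all genes. With each array centred on its median over all probe sets, the medians of these lists were 0.003, 0.03 and 0.02. For 27 proteasome subunits the count was 0 in limma (3 at an unadjusted p under 0.05) and the median -0.02. Cytosolic ribosomal protein genes had a median of -0.19. Of 29 tested 3 fell, beside 5.25% of all genes: Rpl4 by 0.33, Rpl5 by 0.39 and Rps6 by 0.17. The number called lower was 2, 0, 2, 1, 2 and 2 as each array was left out, and 1 was called higher without iron replicate 1. Below 0 stood 23 of the 29 and above it 6, against 42.9% and 57.1% of all genes. At an unadjusted p under 0.05, 15 were lower and 1 higher, beside 13.3% and 13.9% of all genes. Of 27 antioxidant and iron genes 1 fell, beside 5.25% of all genes: the glutathione peroxidase gene Gpx1, by 0.94 (SE 0.241, adjusted p = 0.0322). The number called lower was 0, 0, 0, 2, 0 and 0 as each array was left out. Of 18 clock genes 1 rose, beside 2.79% of all genes: Nfil3, a repressor of circadian output, by 0.41 (adjusted p = 0.0241). The number called higher was 0, 0, 1, 0, 0 and 0 as each array was left out. When the sham day 3 array was left out Rpl4 and Rpl5 still passed, and Hadh, Rps6, Gpx1 and Nfil3 did not (adjusted p = 0.0937, 0.0683, 0.0873 and 0.0575).

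**Figure D3:**
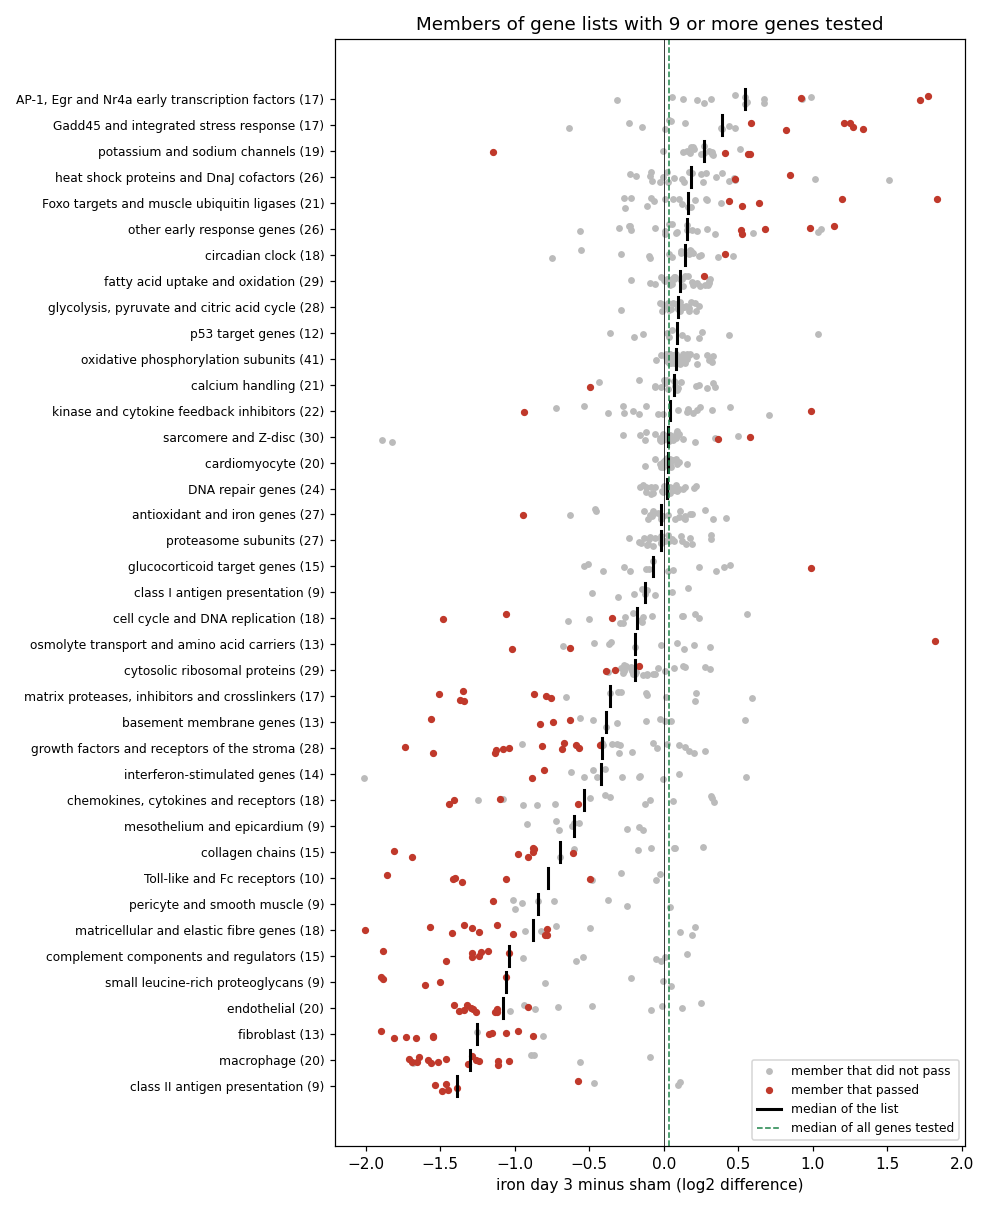
Each row is a list with 9 or more genes tested (number in brackets) and each point a member's iron day 3 minus sham difference (log2, horizontal axis), red where it passed and grey where it did not, spread vertically only for legibility. Black bars are list medians and the dashed line is the median of all genes tested (0.04). The early transcription factors (median 0.55) head the rows, and class II antigen presentation, macrophage, fibroblast and endothelial lists (medians -1.39 to -1.08) close them.

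Genes of the extracellular matrix fell in 35 of 72 cases over 5 lists, beside 5.25% of all genes, and none rose. Their median was -0.74, and -0.70 without the sham day 3 array. The number called lower was 21, 13, 25, 16, 31 and 24 as each array was left out, and 1 gene was called higher without iron replicate 3. Postn, the periostin of activated fibroblasts, stood at 6.68, 6.35 and 6.74 after iron and at 8.86, 8.71 and 8.20 in sham (-2.0, SE 0.275, adjusted p = 0.00536). The highest iron array was far below the lowest sham array. Fibroblast markers moved with these genes, with 11 of 13 lower (9, 9, 10, 9, 11 and 10 as each array was left out), and 5 of the 72 are among those markers. The mean marker score of the arrays, centred over all 15, ran from -0.83 to -0.65 after iron and from 0.50 to 0.78 in sham. Its part in the matrix result was not tested.

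The small leucine-rich proteoglycans, which bind collagen fibrils, fell in 5 of 9 cases (median -1.06). The number called lower was 5, 4, 5, 5, 5 and 5 as each array was left out. Lum, the gene of lumican, stood at 5.35, 5.14 and 5.56 after iron and at 7.10, 7.21 and 7.43 in sham (-1.90, SE 0.255, adjusted p = 0.00536). Dcn, the gene of decorin, stood at 10.03, 10.32 and 10.37 beside 11.18, 11.23 and 11.47 (-1.06, SE 0.176, adjusted p = 0.00697). In both genes the groups were clearly apart. Aspn fell by 1.88, Ecm2 by 1.60 and Bgn, the gene of biglycan, by 1.5. These 5 genes passed without the sham day 3 array too.

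Collagen genes fell in 8 of 15 cases (median -0.70, and 6, 3, 7, 4, 8 and 6 lower as each array was left out). Col3a1, a fibrillar collagen of the heart's interstitium, stood at 6.12, 5.95 and 5.89 after iron and at 7.94, 7.50 and 7.95 in sham (-1.81, SE 0.299, adjusted p = 0.00679). The chains of the main fibrillar collagen, Col1a1 and Col1a2, fell by 0.88 and 0.98, and Col8a1, a short chain of vessel walls, by 1.69. The falls of Col6a2, Col6a3, Col14a1 and Col15a1 ran from 0.61 to 0.91.

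Matricellular and elastic fibre genes fell in 11 of 18 cases (median -0.88, and 5, 3, 7, 4, 10 and 6 lower as each array was left out). Besides Postn the larger falls were in Mfap5 (1.57), Vcan, the versican gene (1.42), Mfap4 (1.34), the fibronectin gene Fn1 (1.28), Sparc (1.24) and Thbs2 (1.12). Basement membrane genes fell in 4 of 13 cases (1, 1, 1, 1, 2 and 2 with an array left out), led by Nid1, the linker nidogen (-1.56, SE 0.270, adjusted p = 0.00764). Of 17 proteases, inhibitors and crosslinkers 7 fell (4, 2, 5, 2, 6 and 5 with an array left out), on both sides of matrix turnover. The gelatinase gene Mmp2 fell by 1.51 (SE 0.282, adjusted p = 0.0105), Adamts5 by 1.34 and the crosslinking enzyme gene Loxl1 by 1.34, and the inhibitors Timp1, Timp2 and Timp3 by 1.37, 0.87 and 0.75. Timp1 stood at 7.45, 6.18 and 6.28 in the sham arrays, and its difference stayed between -1.60 and -0.97 as each array was left out.

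Genes of complement, of Toll-like and Fc receptors, of chemokines and cytokines, and of class II antigen presentation fell in 24 of 52 cases over these 4 lists, beside 5.25% of all genes, and none rose. Class I antigen presentation had 0 of 9 called in limma (2 at an unadjusted p under 0.05). Interferon-stimulated genes had 2 of 14 lower, beside the same 5.25% of all genes. The median of the 52 was -0.79, and -0.63 without the sham day 3 array, and the number called was 15, 10, 21, 12, 25 and 15 as each array was left out. Macrophage markers moved with them, with 15 of 20 tested lower (10, 6, 12, 8, 14 and 10 with an array left out) and a score from -0.93 to -0.66 after iron against 0.16 to 0.67 in sham, and 4 of the 52 are among those markers. Their part in the immune result was not tested. Lyz2, the lysozyme of macrophages, stood at 8.32, 8.36 and 8.54 after iron and at 10.04, 9.69 and 10.60 in sham (-1.71, SE 0.302, adjusted p = 0.00827). Tyrobp, an adaptor of myeloid receptors, fell by 1.66, Cybb, the oxidase subunit, by 1.59, Mrc1, the mannose receptor of resident macrophages, by 1.56 and Csf1r, the receptor for their survival factor, by 1.26.

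Class II antigen presentation fell in 6 of 9 cases (5, 5, 5, 5, 6 and 5 with an array left out), with a median of -1.39, which was -1.21 without the sham day 3 array. H2-Aa, a chain of the class II protein, stood at 6.62, 6.68 and 6.88 after iron and at 8.28, 7.74 and 8.53 in sham (-1.46, SE 0.224, adjusted p = 0.00659). Cd74, the chaperone of these proteins, fell by 1.49, H2-Eb1 by 1.45, H2-Ab1 by 1.39, and Ctss, the protease that trims the chaperone, by 1.54. These 5 passed without the sham day 3 array, and H2-DMa (-0.57) did not. Class I genes, which most cells express, had a median of -0.13.

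Complement genes fell in 8 of 15 cases (median -1.04), and the number called was 3, 0, 8, 1, 8 and 3 as each array was left out. The C1q chains C1qa, C1qb and C1qc fell by 1.04, 1.29 and 1.24, the receptors C3ar1 and C5ar1 by 1.46 and 1.29, and the regulator Cd55 by 1.88. Cd55 stood at 4.66, 5.10 and 5.25 after iron and at 6.40, 6.54 and 7.72 in sham, where the sham day 3 array was the highest. Of 10 Toll-like and Fc receptor genes 6 fell (5, 4, 6, 5, 6 and 5 with an array left out). Tlr7, an endosomal sensor of single-stranded RNA, stood at 4.81, 4.16 and 5.21 beside 6.74, 6.46 and 6.56 (-1.86, SE 0.317, adjusted p = 0.00745), and Fcer1g, the shared chain of Fc receptors, fell by 1.40. Of 18 chemokines, cytokines and their receptors 4 fell (2, 1, 2, 1, 5 and 2 with an array left out): Ccl9 by 1.44, Osmr, the oncostatin M receptor, by 1.41, Cxcl16 by 1.10 and Il6ra by 0.58. The interferon-stimulated genes that fell were Gbp3, by 0.88, and the RNA sensor Ddx58, by 0.81, with 0, 0, 2, 0, 2 and 0 called lower as each array was left out. Rsad2 stood lower by 2.01 with a wide spread (SE 0.683, adjusted p = 0.0847).

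Endothelial markers fell in 11 of 20 cases (median -1.08, and -1.19 without the sham day 3 array), and the number called was 4, 1, 8, 2, 9 and 7 as each array was left out. Vwf, the von Willebrand factor gene, stood at 6.72, 6.56 and 7.08 after iron and at 8.07, 8.03 and 8.14 in sham (-1.29, SE 0.200, adjusted p = 0.00660). Pecam1, the adhesion protein of endothelial junctions, fell by 1.26 and Tek, the angiopoietin receptor, by 1.28. The growth factors and receptors of the stroma fell in 12 of 28 cases (median -0.41, and 3, 3, 7, 3, 7 and 4 lower with an array left out). Igf1, a growth factor that macrophages and fibroblasts release, stood at 5.73, 5.58 and 5.82 beside 7.73, 7.35 and 7.26 (-1.74, SE 0.294, adjusted p = 0.00745). Pdgfra, the receptor that marks cardiac fibroblasts, fell by 1.55, Igf2 by 1.13, and the ligands Tgfb2 and Tgfb3 by 0.68 and 0.57. Of 18 cell cycle genes 3 fell, beside 5.25% of all genes, with 1, 0, 2, 0, 5 and 0 called lower as each array was left out. Mki67, a marker of dividing cells, stood at 5.74, 5.64 and 7.22 in sham, highest on day 3, and fell by 1.48 with that array and by 0.97 without it (adjusted p = 0.0290 and 0.0784).

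The largest falls of all were in Cd24a, a surface protein of immature blood and epithelial cells, and Car2, a carbonic anhydrase abundant in red cells. Cd24a stood at 6.75, 6.38 and 7.55 after iron and at 8.51, 10.03 and 10.76 in sham (-2.87, SE 0.822, adjusted p = 0.0486), and Car2 at 5.32, 4.79 and 5.69 beside 6.46, 8.51 and 7.84 (-2.34, SE 0.570, adjusted p = 0.0274). Both varied by more than 2 log2 units within sham, and neither passed without the sham day 3 array (adjusted p = 0.160 and 0.0848). Of 4 erythroid markers tested 0 passed in limma (2 lower at an unadjusted p under 0.05). Slc4a1, the anion exchanger of red cells, stood lower by 2.33 (adjusted p = 0.0878) and Alas2, of haem synthesis, by 2.46 (adjusted p = 0.144). The erythroid score ran from -1.01 to -0.04 after iron and from 0.24 to 1.15 in sham, and its part in the falls of Cd24a and Car2 was not tested.

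Marker scores set the groups apart for several cell types at once. Less RNA of a cell type in these bulk samples can mean fewer such cells or less RNA in each, which cannot be told apart. The endothelial score ran from -0.66 to -0.32 after iron and from 0.23 to 0.54 in sham, and that of cardiomyocytes from 0.03 to 0.07 and from -0.01 to 0.05. Pericyte and smooth muscle markers had 1 of 9 lower (Kcnj8), beside 5.25% of all genes, with a median of -0.84. In this list 0 were called with any array but the sham day 3 array left out (2 without that one). The airway list had a median of -1.06, which became 0.20 without the sham day 3 array. Its score was 2.30 in that array, and 0.29 and -1.73 in the sham day 1 arrays. The T cell score of the sham day 3 array was 1.39, above all iron day 3 arrays (-0.95 to -0.54). Of 14 monocyte and neutrophil markers 12 are on the array, and none of these reached the signal needed for testing. Atrial genes varied within both groups: Myl7, the atrial light chain, stood at 4.92, 4.97 and 8.71 after iron and at 10.31, 7.57 and 6.39 in sham, and did not pass (adjusted p = 0.220).

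**Figure D4:**
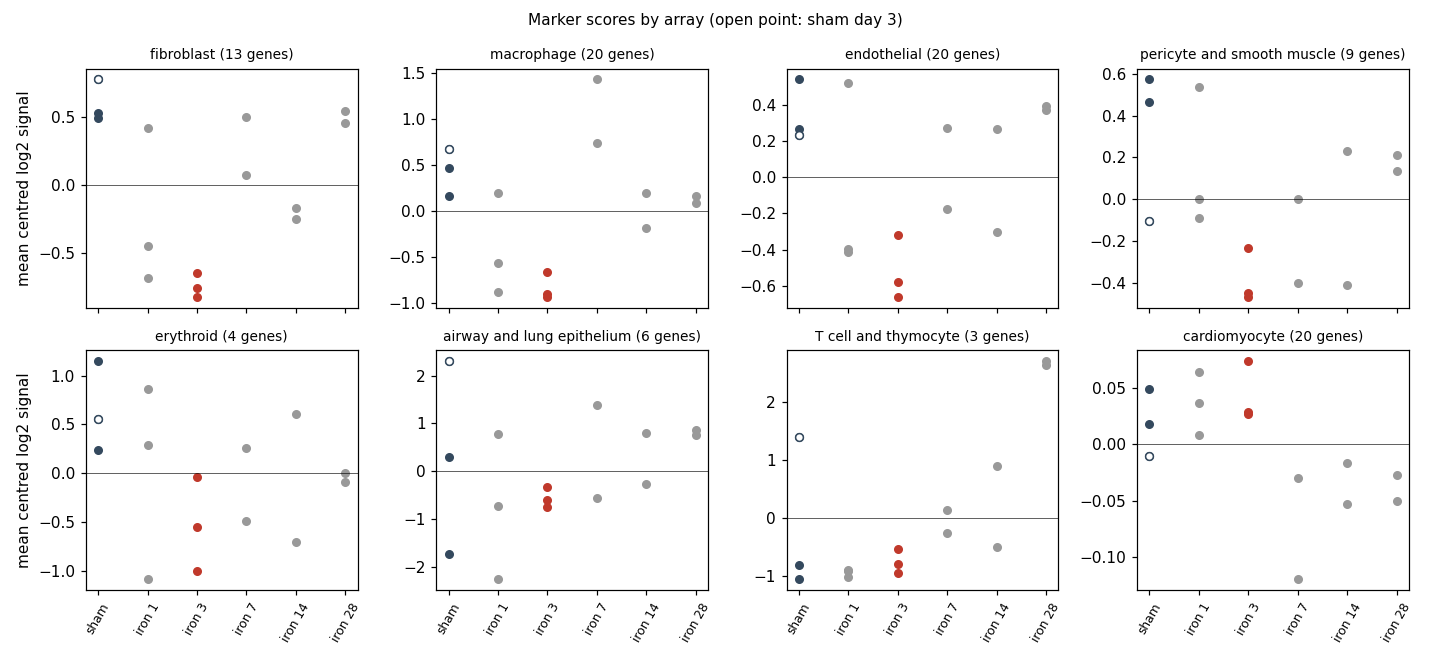
Marker scores of 8 cell types, each the mean over its markers of the log2 signal centred over the 15 arrays (vertical axis, scales differ between panels), for sham (dark), iron day 3 (red) and the other iron days (grey), with the sham day 3 array as an open point. Fibroblast, macrophage and endothelial scores of iron day 3 lie below those of all 3 sham arrays, while cardiomyocyte scores stay between -0.12 and 0.07 on all arrays.

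Direct tests placed day 3 among the other iron days. Against iron day 1, 5 genes (0.0502%) were higher and 0 lower in limma, with 1289 genes at an unadjusted p under 0.05. Cited2 stood at 8.55 to 8.84 in the 3 iron day 1 arrays, below all day 3 arrays, and was higher on day 3 by 0.62 (SE 0.0788, adjusted p = 0.0220). The others were the small nucleolar RNAs Snord49b (0.97) and Snora21 (0.87) and the long noncoding RNAs Gm24463 (0.90) and C130036L24Rik (0.58). The count was 33 without iron day 3 replicate 1 and 0 without replicate 2 or 3, and it was also 0 without iron day 1 replicate 2, either iron day 28 array or the first sham array. It was 3 without iron day 1 replicate 1, the second sham array or the sham day 3 array, 8 without either iron day 14 array, 13 without iron day 1 replicate 3 and 17 without either iron day 7 array. This comparison and that with sham share the iron day 3 arrays. Group means show the course of other genes. Atf3 averaged 8.81 on iron day 1, 10.23 on day 3 and 9.87 on day 7, and Nr4a3 6.76, 8.50 and 8.09. Their list as a whole was not highest on day 3. Scored like the markers, it averaged -0.265, 0.373 and 0.457 on these days, with the day 7 arrays at 0.976 and -0.062. The further early response genes averaged -0.160, 0.167 and 0.272, and the growth arrest and integrated stress genes -0.121, 0.236 and 0.221. H2-Aa averaged 6.57, 6.72 and 9.30 on these days beside 8.18 in sham, and Lyz2 9.00, 8.41 and 10.62 beside 10.11.

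Against iron day 7, 1477 genes (14.8%) passed, 804 higher (8.07%) and 673 lower (6.75%) on day 3. The count was 143 without iron day 7 replicate 1 and 720 without iron day 3 replicate 2. On the higher side stood outputs and repressors of the circadian clock. Ciart averaged 8.64 on day 3 and 5.51 on day 7 (3.13, SE 0.255, adjusted p = 3.9e-05), Per3 7.26 and 5.14, Dbp 9.93 and 7.87 and Per2 7.03 and 5.42. In sham these 4 lay close to day 3, and none passed against it. The score of the clock list was at least 0.086 in each array of sham and of iron days 1 and 3. It was at most -0.258 in each array of iron days 7, 14 and 28. Mir133a-1 was also higher on day 3 than on day 7, by 2.07 (SE 0.397, adjusted p = 0.00554). On the lower side were myeloid genes: Ccl9 averaged 6.25 and 9.25, Ccl6 6.61 and 9.39, the ficolin gene Fcna 5.24 and 8.19, and Ms4a6c 5.74 and 8.50. The macrophage score was at most -0.66 on day 3 and at least 0.74 on day 7, and its part in these differences was not tested.

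**Figure D5:**
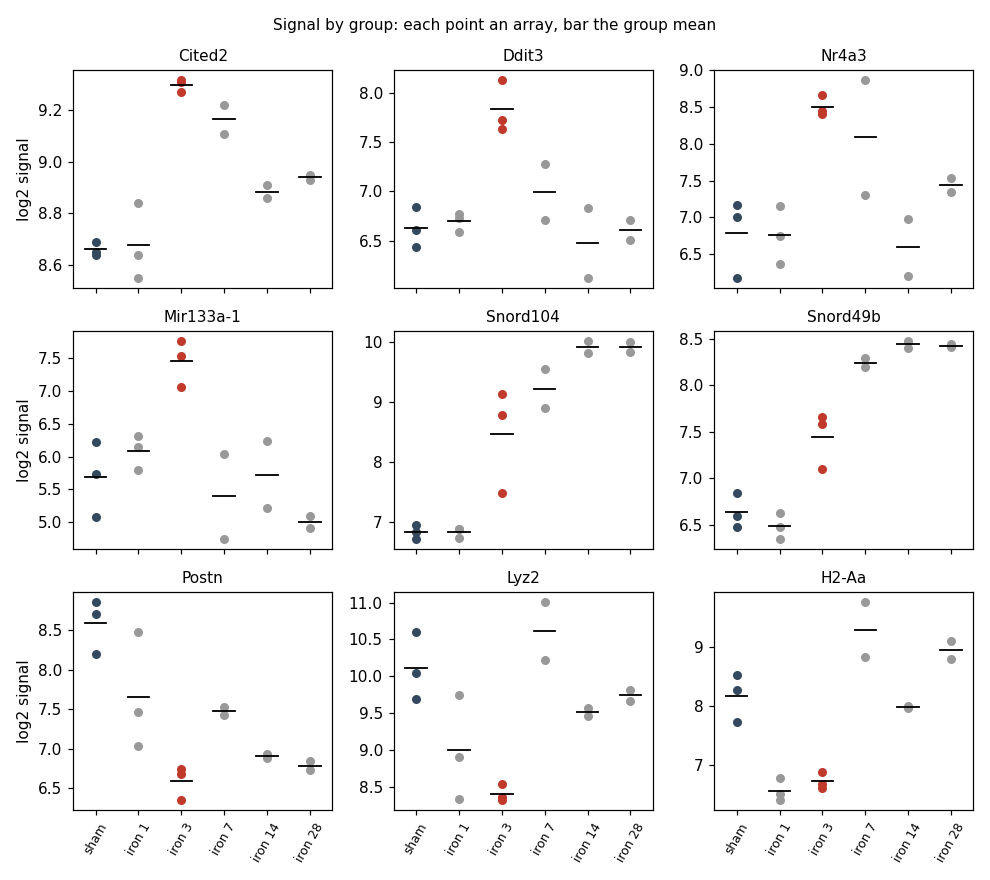
Log2 signal (vertical axis, scales differ between panels) of 9 genes in sham and at iron days 1, 3, 7, 14 and 28, each point an array and each bar a group mean. Cited2, Ddit3, Nr4a3 and Mir133a-1 have their day 3 arrays above all sham and day 1 arrays, but of these Cited2 alone passed against day 1. The highest Nr4a3 array (8.87) is of day 7. Snord104 and Snord49b are higher still on days 14 and 28, and Postn, Lyz2 and H2-Aa have their day 3 arrays below all sham arrays.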

How the data were processed

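RNA of isolated cardiomyocytes was measured on 15 arrays. Log2 signals of 34760 probe sets were used as the authors deposited them. MAS5 is named in the submitters' processing notes, with neither version nor role given in the sources used here. Exactly 1 gene symbol was attached to 21640 probe sets, several to 1321 and none to 11799, and 21553 of the 21640 matched the gene table. Each of the 19937 genes was represented by its probe set with the highest mean over 15 arrays. The 9969 genes with a mean log2 signal of at least 5.5125, the 50th percentile, entered 1 linear model (limma 3.58.1, R 4.3.3). It had 6 group means over all 15 arrays, a moderated variance with intensity trend and 9 residual degrees of freedom. In simulated data 91 of 100 genes changed by 1 log2 unit were called, 53 of 100 changed by 0.5, and 10 of 9769 unchanged. The simulated noise was independent between genes and arrays, so it does not cover shifts shared by the genes of an array. The number of arrays limits the precision.

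The genes named are the 12 largest differences in each direction among those that passed without overlap, members of 47 gene lists, short RNAs that passed, and, for other days, the 6 largest in each direction. The lists hold 994 symbols, of which 910 are on the array, and some genes belong to several lists. Uncalled members and genes that passed whichever array was left out were named after their values were seen. The comparison and the lists were chosen with earlier results of these data known. Alternatives were quantile normalization, 2 kinds of centring (that on the genes tested chosen after seeing the data), other filters, no trend, array weights, probe set means, blocking on replicate number, a fit of only the arrays compared, sham arrays of 1 day, and leaving out each array. Tables and figures used Python 3.11.15, pandas 2.3.3, numpy 2.4.6 and matplotlib 3.10.9.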

Additional observations from a re-analysis of the deposited data

Results flagged for a closer look

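In each of these results the test of the difference between iron days, limma's contrast with Benjamini-Hochberg adjustment over all genes tested, passed. From iron day 1 to iron day 3 the log2 signal was higher by 0.62 in Cited2, 0.90 (0.897) in Gm24463, 0.97 (0.966) in Snord49b, 0.87 in Snora21 and 0.58 (0.579) in C130036L24Rik. Between day 3 and iron day 7 it was higher on day 3 by 3.13 in Ciart, 2.12 in Per3, 2.07 in Dbp, 2.07 in Mir133a-1, 1.61 in Per2 and 1.41 in Pla2g4e. The day 3 minus day 7 difference was -3.01 in Ccl9, -2.95 in Fcna, -2.84 in Cxcl13, -2.78 in Ccl6, -2.76 in Ms4a6c and -2.75 in Wfdc18. The 3 day 3 arrays of Cxcl13 stood at 6.61, 9.07 and 7.92.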

How the results depend on the processing

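Of 179 named genes that passed for iron day 3 minus sham, 0 changed direction under any alternative run. Where the arrays do not overlap, leaving out an array or choosing among the sham arrays cannot change the direction. Those that still passed numbered 175 with quantile normalization, 165 with median centring, 179 with array weights, 105 with the sham day 1 arrays and 63 with the sham day 3 array as control. The count of 801 became 451 under a stricter signal filter (6646 genes), 1691 with array weights, 270 and 477 with the sham day 1 and the sham day 3 arrays as control, and 126 to 1080 as each array was left out. With the replicate number as a block it was 155, 33 higher and 122 lower. In that fit the early transcription factor and heat shock lists had 0 called, and the fibroblast and macrophage lists 8 lower each. Whether the numbers pair the arrays could not be settled. Deviations of same-numbered arrays correlated at -0.394 to 0.565 (median 0.06, 11 of 31 above 0.1), and the iron day 3 and sham pairs at 0.0698 and 0.0606. Those of differently numbered arrays correlated at -0.565 to 0.49 (median -0.03, 14 of 50 above 0.1). In groups of 2 arrays the deviations mirror each other, which fixes part of these values. The sham day 3 array carries no number and drops out of the blocked difference. For iron day 3 minus iron day 1 the 5 genes became 8 with median centring, 10 with array weights, 2 with mean probe sets, 8 with the replicate block, 0 with only the arrays compared (limma, 1256 at an unadjusted p under 0.05), and 0 to 33 as each array was left out. The 1477 against iron day 7 ran from 143 to 1723. The 38 between sham days became 238 without a filter, 22 under the stricter one, 117 with array weights, 104 with only the arrays compared, and 6 to 78. The causes were not tested. The filter leaves dim genes untested, and 3 arrays a side limit small differences.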
